A study of Solanum lycopersicum with 24 samples.

Results

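The salt response of wild-type (WT) tomato roots was examined by comparing 3 arrays of roots after salt stress with 3 arrays of roots in control, that is, 6 of the 24 arrays of the series. The arrays were chosen by their labels alone (cultivar, organ and treatment). Salt-stressed roots came from plants of *Solanum lycopersicum* cv. Moneymaker, 6 weeks old when salt was applied, kept for 5 days with 200 mM NaCl in the hydroponic solution, with a lower concentration on the first day. Control roots came from plants of the same cultivar and age, taken before salt was added, so that 5 days of growth and 5 days of salt cannot be told apart in this comparison. The other groups used here were salt-stressed and control roots of the *res* mutant in the same background, and salt-stressed and control leaflets of WT plants, each with 3 arrays. All groups grew in aerated diluted Hoagland solution in a growth chamber, and each array carried RNA pooled from whole roots (or leaflets) of 3 plants.

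Salt reaches the root first. There it lowers the water potential outside the cell and brings Na+ that competes with K+. Roots answer through abscisic acid (ABA), which acts through PYR/PYL receptors, PP2C phosphatases and SnRK2 kinases and induces dehydrins and other protective proteins, and through the SOS pathway, in which a calcium sensor and a kinase activate the Na+/H+ antiporter SOS1. Na+ may also be moved into the vacuole by NHX exchangers, driven by proton pumps, while compatible solutes such as proline, polyamines and raffinose sugars accumulate in the cytosol.

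The values were log2 intensities of 67795 probe sets, processed by the authors with RMA (robust multi-array average), and a value of 1 on this scale is a 2-fold difference. Medians of the 24 arrays lay between 1.84 and 2.17, so a value near 2 is that of the middle probe set, and no detection calls were used. Of the probe sets, 23194 had 1 gene symbol, but for 22244 of these it was a LOC number without a description, so the genes named below come from 894 genes with a true name. A differentially expressed gene (DEG) was a probe set with an adjusted p under 0.05 in limma and at least a 2-fold change. Fold changes are given as log2 ± SE, where the SE rests on the spread within the 4 root groups (12 arrays), with n = 3 arrays per group throughout.

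The 3 control arrays resembled one another closely, with pairwise correlations across probe sets of 0.991. Salt replicates 1 and 2 correlated at 0.99, but salt replicate 3 reached only 0.978 with replicate 1 and 0.981 with replicate 2. At 1399 probe sets replicate 3 lay more than 2-fold away from the average of the other salt arrays, 737 higher and 662 lower, whereas replicates 1 and 2 did so at 518 and 368, and the control arrays at 78 to 142. Among named genes it differed at 59. The largest of these differences were in *CIP1* (9.28, 9.25 and 5.03 in salt, 9.1, 9.1 and 9.16 in control), and in *CAB4*, for a chlorophyll a/b-binding protein (6.8, 6.63 and 2.6 in salt, 5.48, 5.31 and 4.92 in control). In the other direction stood *ADH2*, an alcohol dehydrogenase gene, with 5.34, 5.77 and 8.63 in salt against 6.41, 6.27 and 6.6 in control. These 3 genes were chosen after their values were seen, and none was a DEG over all arrays. Counts per gene group are therefore also given without salt replicate 3 where they change.

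The organ label was checked with 11 root genes and 11 genes of green tissue. The root genes had means of 5.77, 5.79 and 6.07 in the salt arrays and 6.86 to 6.94 in the control arrays of roots, against 2.75 to 2.86 in salt-stressed and 3.16 to 3.18 in control leaves. Of these root genes *PT4* and *ext1* were at or below 1.93 in all 6 root arrays, and *AMT1-2* was nearly as high in control leaves (mean 9.65) as in roots. The green tissue genes had means of 3.88, 3.83 and 2.82 in the salt arrays and 3.19 to 3.42 in the control arrays of roots, far under the 8.27 to 8.31 of salt-stressed and 9.07 to 9.3 of control leaves. Thus salt replicates 1 and 2 lay above all control roots and replicate 3 below them, and 2 of the 11 genes, *psaD* (1.16 ± 0.12) and *PSBP* (1.84 ± 0.32), were DEGs. The median log2 fold change of the 11 green tissue genes was 0.16. Without salt replicate 3 it was 0.31, and 3 of the 11 were called higher. The part of these transcripts in other results was not tested.

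After salt, 1841 probe sets (2.72% of those tested) were DEGs in WT roots, 1018 higher (1.5%) and 823 lower (1.21%). The arrays of both groups did not overlap at 1823 of the 1841, whereas this held at 24.0% of all probe sets and 47.0% of named genes. A change of at least 8-fold was seen at 87 probe sets that rose and 52 that fell, and one of at least 32-fold at 5 in each direction. Without salt replicate 3 there were 2080 DEGs (3.07%), 1167 higher (1.72%) and 913 lower (1.35%), which included 1681 of the 1841. Named genes were called more often than probe sets in general, 94 of 894 (10.5%) with 59 higher (6.6%) and 35 lower (3.91%), and these shares are the background for the gene groups below. Without salt replicate 3, 115 named genes (12.9%) were called, 74 higher (8.28%) and 41 lower (4.59%). Since whole roots were used, fewer cells of a type and less RNA per cell cannot be told apart.

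**Figure D1:**
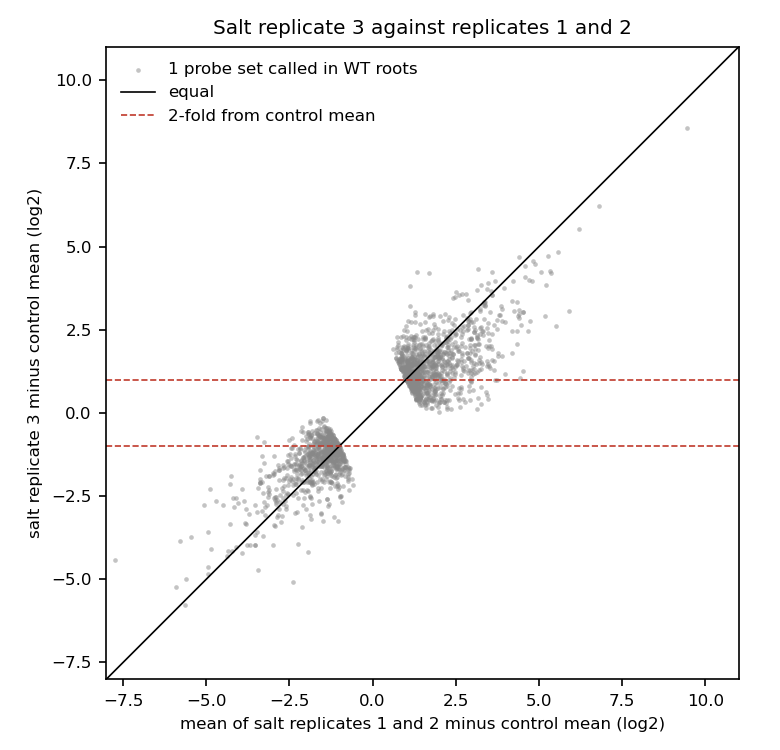
Each point is 1 of the 1841 DEGs of WT roots. The horizontal axis gives the mean of salt replicates 1 and 2 minus the control mean and the vertical axis salt replicate 3 minus the control mean, both in log2 units, with the line of equal values and dashed lines at a 2-fold difference. At 1226 of the 1841 DEGs replicate 3 lay nearer to the control mean than did the mean of replicates 1 and 2.

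Within 2-fold of the control mean, replicate 3 lay at 263 of the 1018 DEGs that rose and at 202 of the 823 that fell, replicate 1 at 133 and 97, and replicate 2 at 77 and 104. Nearly all DEGs had non-overlapping arrays. Their selection over all 3 salt arrays favours this, so it is no separate evidence on the direction of replicate 3. Without replicate 3, 931 of the DEGs that rose and 750 of those that fell were still called.

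The largest change of any gene with a symbol belonged to *LOC101248516*, for which no description was at hand. It had 11.14, 11.11 and 10.23 in salt-stressed roots against 1.86, 1.66 and 1.49 in control roots, a rise of 9.16 ± 0.22 (adjusted p = 1.42e-10, limma). So it lay at the level of dim probe sets in control and among bright ones in all salt arrays. The next gene with a LOC number was *LOC101261512*, with 6.69, 6.56 and 6.08 in salt and 1.34, 1.26 and 1.47 in control (5.09 ± 0.2, adjusted p = 6.69e-09). The largest falls among genes with a symbol were those of *LOC101264339*, with 1.5, 1.82 and 2.36 in salt and 7.57, 7.5 and 7.69 in control (-5.69 ± 0.17, adjusted p = 6.4e-10), and of *LOC101251857*, with 1.45, 1.53 and 1.37 in salt and 7.08, 6.96 and 7.38 in control (-5.69 ± 0.13, adjusted p = 1.42e-10). Both were bright in control roots and dim in every salt array.

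**Figure D2:**
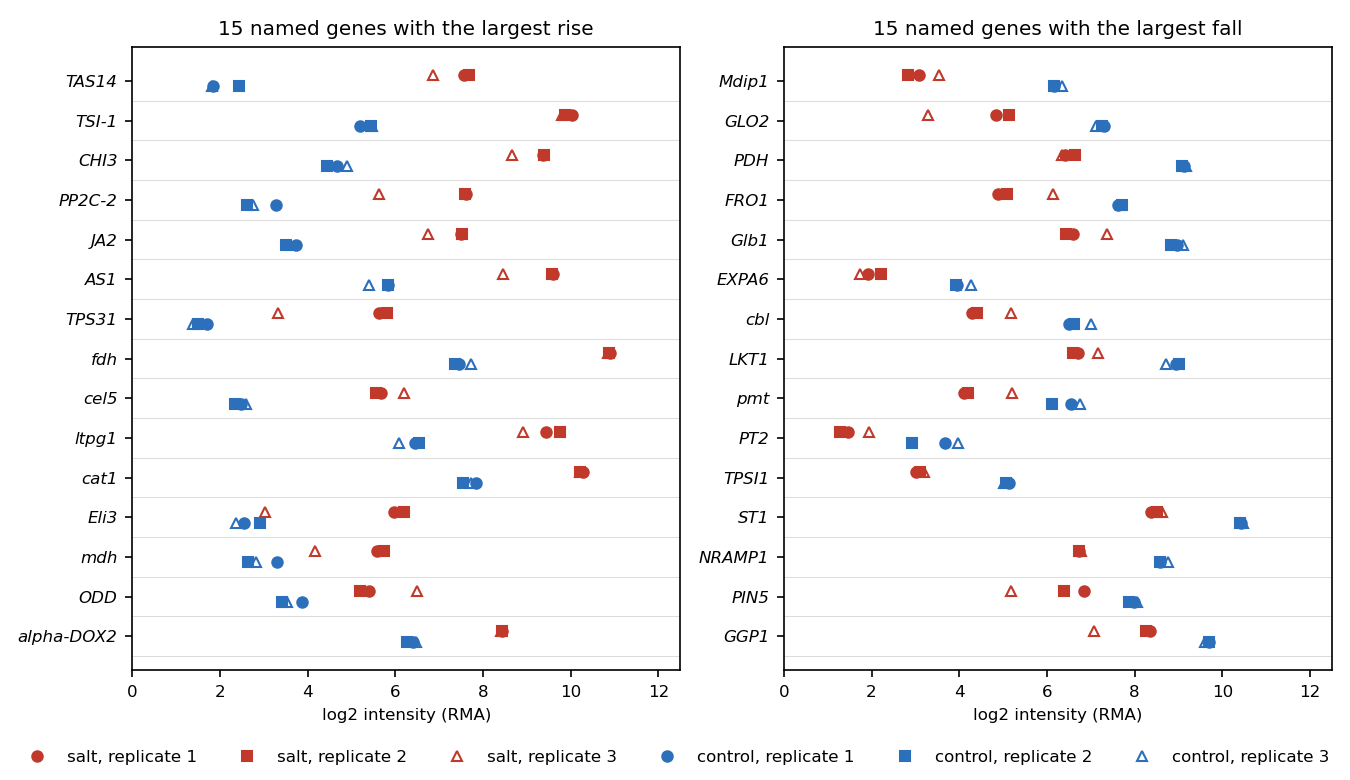
Log2 RMA intensity (horizontal axis) of the 15 named genes with the largest rise (left panel) and the 15 with the largest fall (right panel) in WT roots. In each row the upper red marks are the 3 salt arrays and the lower blue marks the 3 control arrays, with replicate 3 as an open triangle. Only genes whose groups do not overlap were eligible for this figure. Replicate 3 stands furthest from the other salt arrays in *Eli3* (3.03 against 5.98 and 6.2) and *TPS31* (3.33 against 5.64 and 5.81).

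Among genes with a name, the largest rise was that of *TAS14*, a dehydrin gene induced by ABA and salt. It had 7.57, 7.67 and 6.87 in salt and 1.85, 2.44 and 1.82 in control, a 40.3-fold rise (5.33 ± 0.23, adjusted p = 1.34e-08, limma). All salt arrays were above all controls by more than the spread of either group. *PP2C-2* and *PP2C-1* encode phosphatases of the type that holds ABA signalling in check and is itself induced by ABA. *PP2C-2* had 7.62, 7.58 and 5.63 in salt and 3.28, 2.61 and 2.75 in control (4.06 ± 0.4, adjusted p = 2.11e-05). *PP2C-1* had 5.86, 5.99 and 5.08 in salt and 3.99, 4.05 and 3.82 in control (1.69 ± 0.18, adjusted p = 5e-05). In both genes replicate 3 was the lowest salt array but stayed above the controls, and without it *PP2C-2* was at 4.72. *ASR1*, encoding a small protein induced by ABA, stress and ripening, rose by 1.64 ± 0.1. These 4 were the DEGs that rose among 18 genes of ABA and dehydration, and none fell. The median of the 18 was 0.04, against 0.09 over all named genes and -0.03 over all probe sets. The bZIP factor gene *AREB1* was at 0.88 ± 0.17 (adjusted p = 0.00523), below 2-fold, and at 1.15 and called without salt replicate 3, while the ABA synthesis genes *NCED2* (-0.25) and *FLACCA* (-0.21) did not pass. Without that array 5 of the 18 were higher and 1 lower.

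DEGs among genes of compatible solutes went in both directions, where 10.5% of all named genes were called. *PDH*, the proline dehydrogenase gene whose enzyme degrades proline, fell to 6.42, 6.65 and 6.34 in salt, against 9.12, 9.07 and 9.18 in control (-2.66 ± 0.1, adjusted p = 4.43e-09), with no array in between. *ProT2*, a proline transporter gene, had 3.31, 3.51 and 3.51 in salt and 2.32, 1.73 and 2.03 in control (1.42 ± 0.15, adjusted p = 3.11e-05). *ODC*, the ornithine decarboxylase gene of putrescine synthesis, had 7.47, 7.58 and 7.31 in salt and 6.12, 6.18 and 6.11 in control (1.32 ± 0.09, adjusted p = 9.94e-07). Of 20 genes measured, 2 rose and 1 fell, with a median of 0.32. Without salt replicate 3, 3 were higher and 1 lower, with a median of 0.18, since *adc1*, for the arginine decarboxylase of putrescine synthesis, was then called as well (1.12). *PRO2*, for the first steps of proline synthesis, was at 0.18 ± 0.08 and did not pass. *SPDSY*, a spermidine synthase gene, was at 0.98 ± 0.13 (adjusted p = 0.000325), just under 2-fold. Asparagine synthetase *AS1*, in no list, had 9.59, 9.57 and 8.45 in salt and 5.84, 5.84 and 5.39 in control (3.52 ± 0.24, adjusted p = 8.72e-07).

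Sugar genes that passed all rose, 4 of 31 measured (median 0.19), and 3 without salt replicate 3 (median 0.08). *GolS2*, a galactinol synthase gene that commits carbon to raffinose sugars, had 9.35, 9.15 and 8.81 in salt and 7.13, 7.15 and 7.18 in control (1.95 ± 0.12, adjusted p = 2.5e-07). The sucrose-phosphate synthase gene *sps* had 7.45, 7.35 and 6.68 in salt and 5.26, 5.45 and 5.2 in control (1.86 ± 0.17, adjusted p = 9.51e-06). In neither gene did the groups overlap, and replicate 3 was the lowest salt array. The ADP-glucose pyrophosphorylase gene *AGP-S2* (1.09 ± 0.18) went under 2-fold without salt replicate 1 or 2 (0.96 and 0.95), and *TPS1*, a trehalose-6-phosphate synthase gene (1.05 ± 0.16), without salt replicate 3 or control replicate 3 (0.9 and 0.92).

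Of 12 genes for Na+, K+, Ca2+ and proton transport, 1 rose and 1 fell (median 0.29). *NHX1*, a vacuolar Na+(K+)/H+ exchanger gene, had 5.18, 4.72 and 4.04 in salt and 3.46, 3.46 and 2.76 in control (1.42 ± 0.24, adjusted p = 0.00193). The salt arrays spread over more than 2-fold, and the lowest of them, replicate 3, was still above the highest control. *LKT1*, the gene of an inward K+ channel of the root, fell to 6.7, 6.6 and 7.17 in salt, against 8.95, 9.01 and 8.72 in control (-2.07 ± 0.14, adjusted p = 5.79e-07). The plasma membrane antiporter gene *sos1* was measured at 7.33, 7.22 and 7.09 in salt and 7.1, 6.99 and 7.02 in control, a difference of 0.18 ± 0.08 that did not pass (adjusted p = 0.246). The groups overlapped, since salt replicate 3 lay just under control replicate 1. The calcium sensor gene *cbl*, which RefSeq also lists as SlSOS3, fell to 4.28, 4.41 and 5.19 in salt, against 6.51, 6.61 and 7.01 in control (-2.09 ± 0.22, adjusted p = 4.35e-05).

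Other transport genes were below 2-fold. Those of the plasma membrane proton pumps, *LHA1* (0.83 ± 0.09, adjusted p = 4.77e-05) and *LHA2* (0.64 ± 0.12, adjusted p = 0.00329), and of the vacuolar pyrophosphatase *VP1* (0.33 ± 0.09, adjusted p = 0.0414) had an adjusted p under 0.05 but did not count as DEGs. The sensor gene *CBL10* was at 0.92 ± 0.16 (adjusted p = 0.00173) and passed 2-fold without salt replicate 1 (1.01) or control replicate 2 (1.02). The Ca2+ pump genes *LCA1* (-0.74 ± 0.15, adjusted p = 0.00569) and *ACA10* (0.24 ± 0.09, adjusted p = 0.116), and the exchangers *NHX2* (0.11), *nhx3* (0.12) and *nhx4* (0.65), completed the list. Of 3 aquaporin genes none was a DEG in limma, and 1 of them had an unadjusted p under 0.05. *TIP*, a root tonoplast aquaporin, had 10.88, 10.91 and 10.86 in salt and 11.66, 11.73 and 11.71 in control (-0.81, adjusted p = 1.48e-05).

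**Figure D3:**
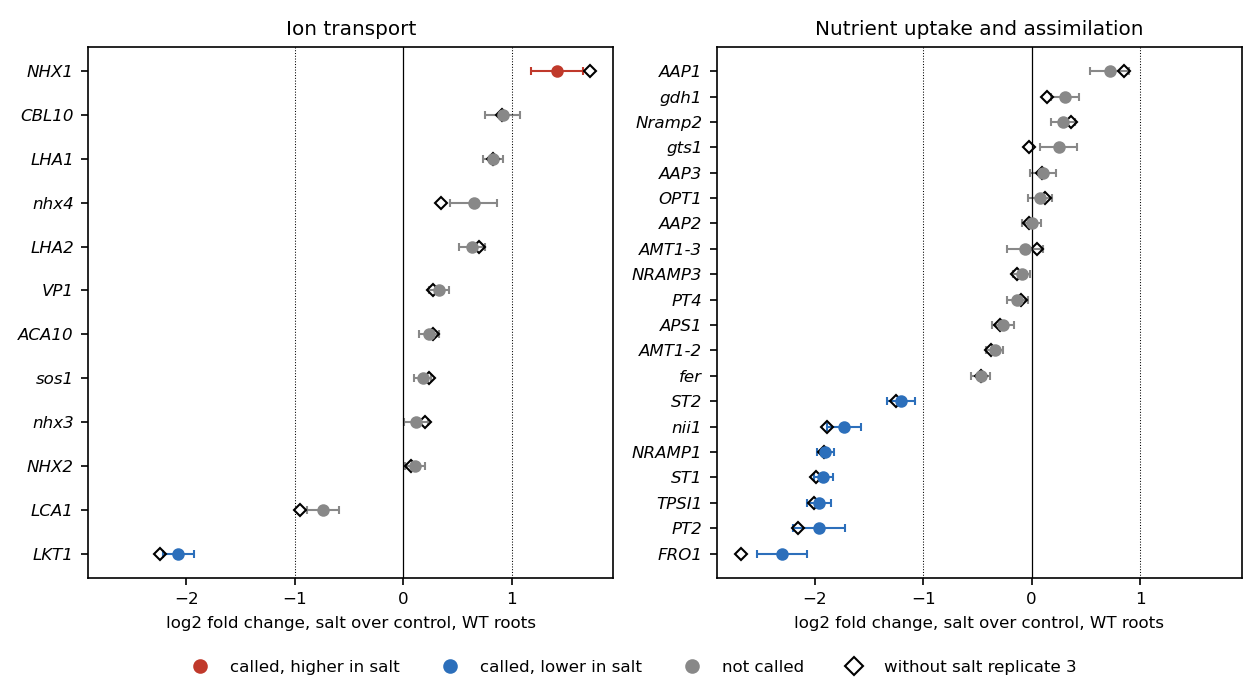
Log2 fold change of salt over control in WT roots (horizontal axis) for the 12 ion transport genes (left panel) and the 20 genes of nutrient uptake and assimilation (right panel). Filled circles with bars are the fit with all arrays ± SE, red or blue where called and grey where not, open diamonds the value without salt replicate 3, and dotted lines mark 2-fold. The calls are *NHX1* (1.42) and *LKT1* (-2.07) on the left and 7 falls on the right, from -1.2 in *ST2* to -2.3 in *FRO1*.

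Genes of mineral nutrient uptake and assimilation, regulators included, were DEGs lower in salt in 7 of 20 cases and higher in none, with a median of -0.2. Iron and metals were represented by *FRO1*, the ferric-chelate reductase gene of iron-deficient roots, which fell to 4.88, 5.1 and 6.13 in salt, against 7.61, 7.72 and 7.7 in control (-2.3 ± 0.23, adjusted p = 2.29e-05), and by *NRAMP1*, a metal transporter gene, which fell to 6.73, 6.73 and 6.77, against 8.58, 8.58 and 8.76 (-1.9 ± 0.08, adjusted p = 1.55e-08). *fer*, the bHLH regulator gene of iron uptake, was at 8.66, 8.66 and 8.64 in salt and 9.04, 9.09 and 9.25 in control, a smaller difference (-0.47, adjusted p = 0.00468). In all 3 genes every salt array lay under every control.

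Sulphate transporter gene *ST1* had 8.38, 8.5 and 8.63 in salt and 10.43, 10.4 and 10.46 in control (-1.92 ± 0.09, adjusted p = 3.78e-08), and *ST2* fell by 1.2 on the log2 scale (adjusted p = 5.69e-05). For phosphate, *TPSI1*, induced by phosphate starvation, had 3.02, 3.1 and 3.19 in salt and 5.14, 5.06 and 5.01 in control (-1.96 ± 0.11, adjusted p = 1.29e-07), and the phosphate transporter gene *PT2* had 1.47, 1.28 and 1.94 in salt, at the level of dim probe sets, and 3.68, 2.93 and 3.98 in control (-1.96 ± 0.24, adjusted p = 0.000144). For nitrogen, the nitrite reductase gene *nii1* had 4.23, 4.27 and 4.73 in salt and 6.19, 6.17 and 6.06 in control (-1.73 ± 0.16, adjusted p = 9.16e-06). The ammonium transporter genes *AMT1-2* (-0.34) and *AMT1-3* (-0.06) and the glutamine synthetase gene *gts1* (0.25) were not called. The same 7 genes fell without replicate 3. Since 4 of them (*ST1*, *TPSI1*, *FRO1*, *PT2*) and *LKT1* also stand among the 11 root genes used to check the organ, 5 of those 11 were DEGs that fell (median -0.81).

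Several of the largest rises were in defence genes. Pathogenesis-related (PR) proteins and chitinases had 5 DEGs higher of 9 measured and none lower, with a median of 1.12. *TSI-1*, for a stress-induced protein of the PR-10 type, had 10.03, 9.87 and 9.8 in salt and 5.2, 5.44 and 5.47 in control (4.53 ± 0.1, adjusted p = 1.01e-10). The acidic chitinase gene *CHI3* had 9.37, 9.4 and 8.67 in salt and 4.68, 4.45 and 4.9 in control (4.47 ± 0.18, adjusted p = 6.75e-09). In both genes salt arrays exceeded controls by more than 3 units of log2. *PR-1a1* (1.31 ± 0.09), *PR1b1* (1.36 ± 0.23) and the basic chitinase gene *CHI9* (1.12 ± 0.09) also rose, the last to 10.39, 10.45 and 10.65 in salt, against 9.41, 9.39 and 9.34 in control. *CHI9* was no DEG when all 24 arrays shared the spread (adjusted p = 0.391).

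Among 13 genes of wound-induced defence 3 rose and none fell (median 0.35), and 4 were higher without salt replicate 3 (median 0.2), *cevi57* (1.14) in addition. The subtilisin-like protease genes *SBT2* (4.49, 4.72 and 4.24 in salt, 2.49, 2.2 and 2.75 in control) and *P69B* (5.31, 5.88 and 5.67 in salt, 3.79, 3.52 and 3.61 in control) rose by 2.0 ± 0.16 and 1.98 ± 0.15, and *ARPI* by 1.76 ± 0.18. The call of *P69B* was lost with all 24 arrays in the fit (adjusted p = 0.13). The classical wound markers *PIIF* (0.29), *LAPA1* (-0.11) and *TD2* (0.35), for a proteinase inhibitor, a leucine aminopeptidase and a threonine deaminase, were not called. *Eli3*, an elicitor-induced gene, had 5.98, 6.2 and 3.03 in salt and 2.56, 2.92 and 2.36 in control. It rested on replicates 1 and 2, with 2.46 ± 0.6 (adjusted p = 0.0209) over all arrays and 3.48 (adjusted p = 1.23e-07) without replicate 3, and it lost the call without salt replicate 1 (2.0), salt replicate 2 (1.89), control replicate 1 (2.44) or control replicate 3 (2.33). The call was also lost with trend and robust settings (adjusted p = 0.0726), with the 6 WT root arrays alone (adjusted p = 0.119) and without moderation over 12 arrays (adjusted p = 0.103) or over 6 (adjusted p = 0.383).

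Of 4 lipid transfer genes 1 rose, of 6 genes of polar lipids 1, of 16 phenylpropanoid genes 2, and none of these fell. *ltpg1*, for a lipid transfer protein, had 9.43, 9.76 and 8.92 in salt and 6.44, 6.54 and 6.09 in control (3.01 ± 0.2, adjusted p = 5.88e-07). The fatty acid dioxygenase gene *alpha-DOX2*, in no list, had 8.43, 8.44 and 8.4 in salt and 6.4, 6.27 and 6.47 in control (2.04 ± 0.08, adjusted p = 9.58e-09). *THT1-3*, whose enzyme couples hydroxycinnamic acids to tyramine, had 9.94, 9.9 and 9.58 in salt and 8.03, 7.78 and 7.85 in control (1.92 ± 0.11, adjusted p = 1.61e-07), and *CCR2*, a cinnamoyl-CoA reductase gene of lignin synthesis, rose by 1.45 ± 0.13. *PLDa1*, a phospholipase D gene, was at 1.04 ± 0.11 and stood at the 2-fold limit, with 0.97 without control replicate 2 and just under 2-fold without salt replicate 1 or control replicate 3.

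Redox genes changed in both directions, 4 higher and 3 lower of 36 (median 0.24), and 5 higher and 4 lower without salt replicate 3, when *DHAR1*, for a dehydroascorbate reductase (1.08), and *FESOD*, for an iron superoxide dismutase (-1.08), passed 2-fold as well. The formate dehydrogenase gene *fdh* had 10.89, 10.87 and 10.84 in salt and 7.46, 7.37 and 7.72 in control (3.35 ± 0.11, adjusted p = 1.46e-09). The catalase gene *cat1* had 10.28, 10.21 and 10.22 in salt and 7.85, 7.55 and 7.73 in control (2.53 ± 0.09, adjusted p = 2.57e-09). All 3 salt arrays nearly coincided in both genes, replicate 3 included. *cevi16*, for a peroxidase, rose by 1.19 ± 0.11. The 2 haemoglobin genes that were DEGs went in opposite directions. *Glb2* was higher in salt, whereas *Glb1* had 6.59, 6.43 and 7.37 in salt and 8.96, 8.83 and 9.11 in control (-2.17 ± 0.19, adjusted p = 5.97e-06). Also lower was *GGP1*, for GDP-L-galactose phosphorylase of ascorbate synthesis, with 8.34, 8.25 and 7.08 in salt and 9.7, 9.69 and 9.61 in control (-1.77 ± 0.24, adjusted p = 0.00031). The cytosolic superoxide dismutase gene *SODCC.1* (0.75, adjusted p = 8.12e-05) and the ascorbate peroxidase genes *APX1* (0.47) and *APX2* (0.23) stayed below 2-fold. The malate dehydrogenase gene *mdh*, with 5.58, 5.74 and 4.17 in salt and 3.3, 2.65 and 2.82 in control, rose by 2.24 ± 0.31.

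Cell wall genes were divided, with 5 higher and 3 lower of 51 (median 0.25), and 5 higher and 2 lower without salt replicate 3 (median 0.15). Without it the expansin gene *exp12* (1.27 over all arrays, 0.92 without) and *XTH16*, for a xyloglucan endotransglucosylase (-1.13 over all arrays, -0.73 without), lost the call and *tXET-B2*, of the same enzyme family, gained it (1.17). *cel5*, for an endo-beta-1,4-glucanase, had 5.68, 5.56 and 6.2 in salt and 2.49, 2.35 and 2.6 in control (3.33 ± 0.15, adjusted p = 1.56e-08). The second glucanase gene *Cel2* rose by 1.15 ± 0.08, but its other probe set did not (0.12, adjusted p = 0.739), and the beta-galactosidase gene *TBG4* by 1.43 ± 0.11. Expansins, which loosen the wall during growth, went both ways. *EXPB2* had 7.51, 7.47 and 8 in salt and 9.32, 9.41 and 9.5 in control (-1.75 ± 0.13, adjusted p = 1.37e-06), and *EXPA6* had 1.91, 2.22 and 1.74 in salt and 3.96, 3.92 and 4.26 in control (-2.09 ± 0.19, adjusted p = 8.37e-06), while *EXP5* rose by 1.64. No expansin named here had overlapping arrays.

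Hormone genes other than those of ABA are given by group, beside the 6.6% of all named genes that rose and the 3.91% that fell. Of 28 ethylene genes 2 rose and 1 fell. The ACC synthase gene *ACS2*, which controls ethylene production, had 2.66, 2.93 and 2.68 in salt and 1.57, 1.38 and 1.42 in control (1.3 ± 0.13, adjusted p = 2.72e-05), and the receptor gene *ETR4* rose by 1.27 ± 0.11. The ACC oxidase gene *ACO4* fell by 1.66 on the log2 scale at its brighter probe set, whereas the other was at -0.23 (adjusted p = 0.336).

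The list of 17 jasmonate genes also held enzymes of other lipoxygenase pathways, and 15 of the 17 were not called. Among those other enzymes, *LOX1.1*, for a 9-lipoxygenase, was lower (-1.08 ± 0.12) and *HPL*, for a hydroperoxide lyase, higher (1.01 ± 0.17). Both lay at the limit, *LOX1.1* at -0.98 without salt replicate 1 and *HPL* at 0.98 without salt replicate 2 and 0.86 without control replicate 1. None of 21 gibberellin genes was a DEG in limma, and 8 had an unadjusted p under 0.05.

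Cytokinin and brassinosteroid genes had 1 DEG higher and 3 lower of 23. *CKX2*, a cytokinin oxidase gene whose enzyme degrades cytokinins, had 5.24, 4.98 and 4.35 in salt and 3.39, 3.27 and 3.28 in control (1.54 ± 0.17, adjusted p = 6.26e-05). The synthesis genes *IPT4* (4.36, 4.3 and 4.44 in salt, 5.7, 5.7 and 6.2 in control) and *CYP735A1* fell by 1.5 and 1.11 on the log2 scale, the second with -0.98 without salt replicate 1. *CYP734A8*, of the P450 family that inactivates brassinosteroids, had 6.83, 6.74 and 7.02 in salt and 8.45, 8.48 and 8.42 in control (-1.59 ± 0.09, adjusted p = 1.48e-07). Of 26 auxin genes 2 were lower, *PIN5*, an auxin carrier gene (6.84, 6.4 and 5.17 in salt, 7.99, 7.86 and 8.06 in control, -1.83 ± 0.3, adjusted p = 0.00126), and *ARF9*, for an auxin response factor (-1.06 ± 0.14, and -0.94 without control replicate 2). Without salt replicate 3 these counts were 4 lower for auxin, and 2 higher and 5 lower for cytokinins and brassinosteroids.

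Regulator genes that were DEGs went in both directions. *JA2*, a NAC transcription factor gene induced by ABA and jasmonate, had 7.5, 7.53 and 6.75 in salt and 3.74, 3.5 and 3.6 in control (3.65 ± 0.17, adjusted p = 3.23e-08), far apart in all arrays. Of 31 genes of WRKY, MYB, NAC and related factors, *JA2* and the bZIP gene *abz1* (1.15 ± 0.14) rose and the MYB gene *THM16* (-1.16 ± 0.16) fell. *ERF4* (-1.03 ± 0.15) was the DEG among 10 ERF and DREB genes, each taken at its brighter probe set, and *MAPK7* (-1.03 ± 0.13) that among 33 calcium sensors and kinases. *ERF1* was below 2-fold at its brighter probe set (0.81 ± 0.16, adjusted p = 0.00467), while its other probe set rose by 1.6 ± 0.2 (adjusted p = 0.000163), with 5.46, 5.46 and 4.61 in salt and 3.84, 3.44 and 3.46 in control. *ERF4* and *MAPK7* went under 2-fold when salt replicate 1 was left out (-0.9 for *ERF4* and -0.92 for *MAPK7*), *ERF4* also without salt replicate 2 (-0.95) or control replicate 1 (just under 2-fold), and *MAPK7* also without control replicate 1 (-0.96). The MADS-box gene *GLO2* had 4.83, 5.13 and 3.29 in salt and 7.3, 7.25 and 7.12 in control (-2.81 ± 0.35, adjusted p = 0.00016).

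None of 16 chaperone genes, 21 TCP factor genes, 7 genes of 14-3-3 proteins and 54 genes of the plastid genome was a DEG in WT roots by limma, whereas 5, 10, 1 and 21 of them had an unadjusted p under 0.05. Without salt replicate 3 the chaperone gene *HSP70* was higher (1.59, adjusted p = 1.83e-06) and *TCP3* lower (-1.09, adjusted p = 0.00059). Of 20 cell cycle genes *krp2*, for an inhibitor of cyclin-dependent kinases, was at 1.04 ± 0.16, and at 0.89 without salt replicate 3 and 0.97 without control replicate 3. Isoprenoid genes had 2 DEGs higher and 1 lower of 35. *TPS31*, for a sesquiterpene synthase, had 5.64, 5.81 and 3.33 in salt and 1.71, 1.51 and 1.39 in control (3.39 ± 0.49, adjusted p = 0.000551, and 4.18 without salt replicate 3), *GAME3*, of steroidal glycoalkaloid synthesis, rose by 1.49 ± 0.19, and the monoterpene synthase gene *MTS2* fell by 1.42 on the log2 scale. Without salt replicate 3, 4 isoprenoid genes were higher and 1 lower.

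**Figure D4:**
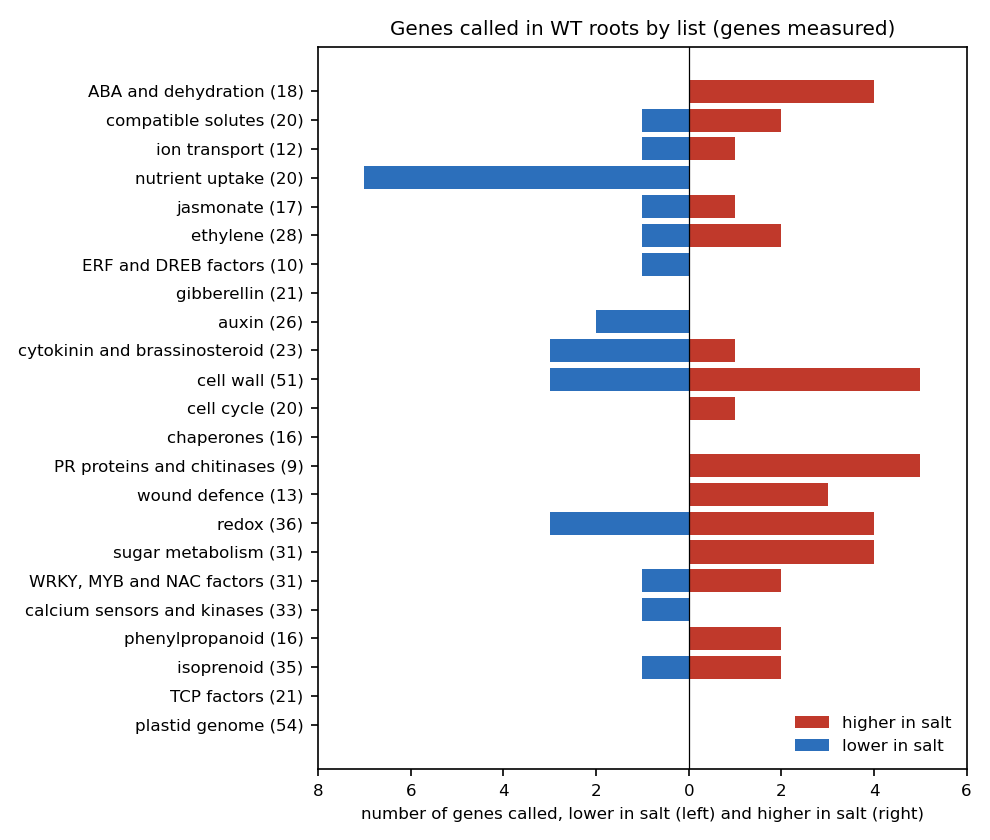
Number of genes called in WT roots in each gene group, higher in salt to the right (red) and lower in salt to the left (blue), with the number of genes measured in brackets. The longest bars are the 7 falls of nutrient uptake and the 5 rises each of PR proteins and chitinases (9 measured) and of the cell wall (51 measured). Bars show counts and not shares, and of all named genes 6.6% rose and 3.91% fell.

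The salt response of WT roots was then set against that of *res* roots, harvested in the same way, with the difference tested in the same limma fit. At 2505 probe sets (3.69%) the responses differed at the thresholds of a DEG, 1282 (1.89%) with a higher value in WT and 1223 (1.8%) with a lower one, and among all named genes this held for 130 (14.5%), 80 higher (8.95%) and 50 lower (5.59%). Among the DEGs of WT roots the difference was called for 499 of the 1018 that rose and for 474 of the 823 that fell, which is a description, since the WT change that selected them is part of the difference. Of the 59 named genes that rose in WT, 9 also rose and 4 fell in *res*, and of the 35 that fell in WT, 6 also fell and 10 rose in *res*. Of all named genes, 6.15% rose and 5.82% fell in *res* roots.

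*FRO1*, *NRAMP1* and *PDH* fell in WT and rose in *res* roots. *FRO1* had 8.28, 8.32 and 8.26 in salt-stressed and 4.8, 4.78 and 4.72 in control *res* roots, so that its response in WT minus that in *res* was -5.82 ± 0.33 (adjusted p = 1.87e-07). *NRAMP1* had 9.14, 9.21 and 9.27 in salt-stressed and 6.96, 7.02 and 7 in control *res* roots (difference -4.11 ± 0.12, adjusted p = 2e-09), and *PDH* 8.45, 8.62 and 8.59 in salt-stressed and 6.57, 6.67 and 6.76 in control *res* roots (difference -4.55 ± 0.14, adjusted p = 2.22e-09). In these genes the control arrays of *res* lay near the salt arrays of WT. The regulator gene *fer* had 7.58, 7.76 and 7.8 in salt-stressed and 5.33, 5.31 and 5.44 in control *res* roots (difference -2.83 ± 0.13, adjusted p = 3.92e-08).

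The defence genes *TSI-1* and *CHI3*, which rose in WT, were already high in *res* control roots. *TSI-1* had 9.99, 9.94 and 9.98 in salt-stressed and 9.94, 9.92 and 10 in control *res* roots (difference 4.51 ± 0.14, adjusted p = 2e-09), and *CHI3* 9.25, 9.48 and 9.48 in salt-stressed and 8.93, 8.95 and 9.11 in control *res* roots (difference 4.06 ± 0.25, adjusted p = 4.35e-07). *JA2* and *cel5* behaved likewise, with differences of 3.79 and 3.47. *TPS31* had opposite responses in WT and *res*, with 1.47, 1.4 and 1.59 in salt-stressed and 5.28, 5.5 and 6.3 in control *res* roots (difference 7.59 ± 0.7, adjusted p = 1.25e-05, and 8.39 without WT salt replicate 3). For *TAS14*, the responses of WT and *res* roots were 5.33 and 5.12, and their difference of 0.21 ± 0.33 did not pass (adjusted p = 0.864). *LOC101248516*, which rose most in WT roots, had 6.57, 7.09 and 6.79 in salt-stressed and 6.36, 6.74 and 6.42 in control *res* roots (difference 8.85, adjusted p = 4.7e-09).

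**Figure D5:**
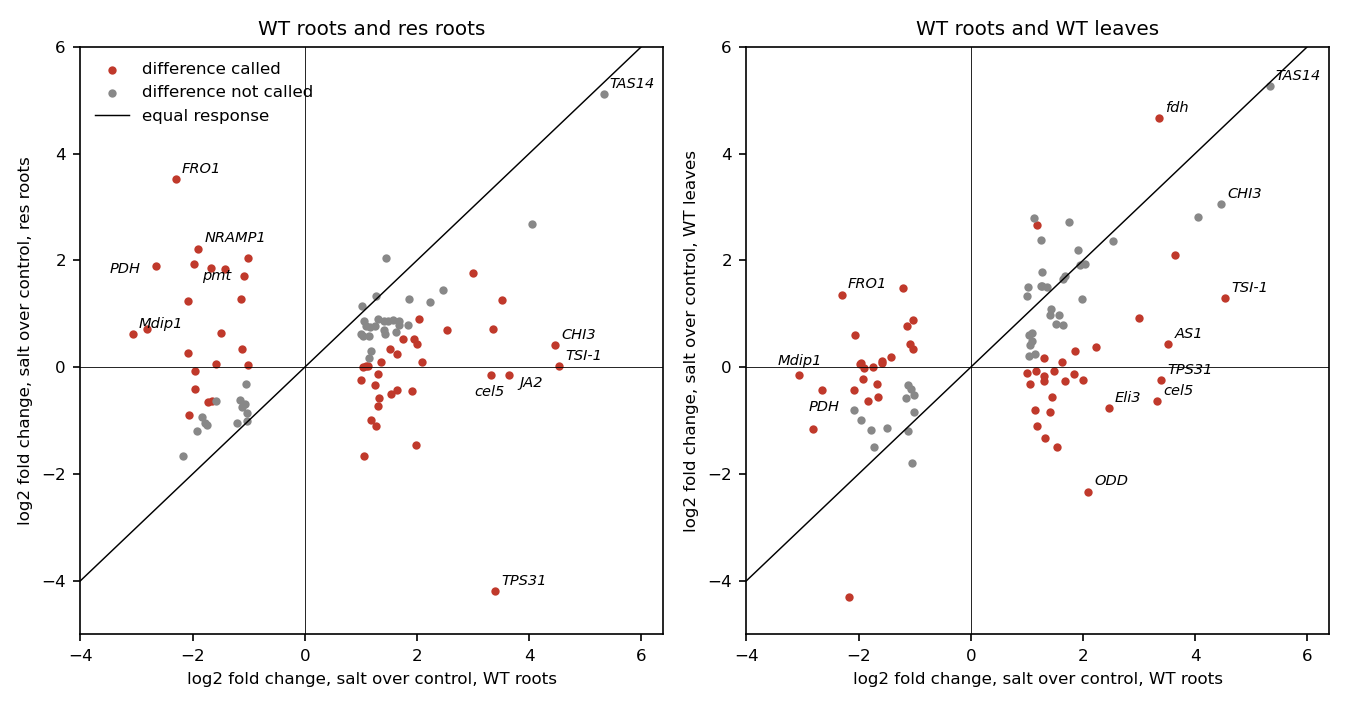
Log2 fold change of salt over control for the 94 named DEGs of WT roots, in WT roots (horizontal axis) against *res* roots (left panel, vertical axis) and WT leaves (right panel, vertical axis). Each point is a gene, red where the difference of the responses was called and grey where it was not, and the diagonal marks equal responses. *TAS14* lies near the diagonal in both panels, while *TSI-1*, *cel5* and *TPS31* lie far below it and *FRO1* far above it.

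WT leaves were compared in a fit of all 24 arrays, in which leaf control replicate 1 stood apart from its group (2494 probe sets more than 2-fold from the other arrays). Without it 6225 probe sets differed. At 5454 probe sets (8.04%) the responses of roots and leaves differed, 2277 (3.36%) with a higher and 3177 (4.69%) with a lower value in roots. Among all named genes the difference was called for 229 (25.6%), 108 higher (12.1%) and 121 lower (13.5%). Named DEGs that rose in roots also rose in leaves in 23 cases and fell in 4, and those that fell in roots fell in leaves in 7 cases and rose in 2. Of all named genes, 211 (23.6%) were called in leaves, 129 higher (14.4%) and 82 lower (9.17%). *TAS14* had 8.04, 8.09 and 8.11 in salt-stressed and 2.32, 3.19 and 2.95 in control leaves, a rise of 5.26 that differed from that of roots by 0.07 ± 0.31 (adjusted p = 0.925). *fdh* rose less in roots than in leaves (3.35 in roots and 4.67 in leaves, difference -1.32 ± 0.21, adjusted p = 8.99e-05).

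Larger root responses were found in *TSI-1*, with 2.39, 2.82 and 3.11 in salt-stressed and 1.34, 1.6 and 1.52 in control leaves (difference 3.24 ± 0.18, adjusted p = 2.58e-11), and in *AS1*, with 2.52, 2.32 and 2.46 in salt-stressed and 2.1, 2 and 1.93 in control leaves (difference 3.09 ± 0.28, adjusted p = 3.53e-08). In leaves, *AS1* in both groups and *TSI-1* in control were at the level of dim probe sets. The effect of this on the differences was not tested. *ODD*, for a 2-oxoglutarate-dependent dioxygenase, had 5.39, 5.2 and 6.49 in salt-stressed and 3.87, 3.41 and 3.52 in control roots, and in leaves 2.92, 2.36 and 2.25 in salt and 3.2, 5.49 and 5.82 in control, so that it rose in roots and was lower in leaves (difference 4.41 ± 0.6, adjusted p = 1.15e-05, and 5.23 without leaf control replicate 1). *ST2* and *FRO1* fell in roots and rose in leaves, by 1.48 and 1.36 on the log2 scale. All 12 differences from *res* roots and all 12 from WT leaves that the rule for named genes chose were called again without salt replicate 3. They were chosen as the largest, which favours this. Over all named genes, 127 of the 130 differences from *res* roots were called again and 31 were added. Of the 229 from WT leaves, 214 were called again and 30 were added.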

How the data were processed

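Roots and leaflets were hybridized to Tomato Gene 1.1 ST arrays. The authors processed the scans with RMA (the methods also name Partek), and the deposited values are log2 intensities after quantile normalization over the arrays. They were used as given. For the software of the authors, a version is not stated here. Symbols came from the platform's annotation table, with 62 brought up to date through RefSeq. Genes with several probe sets were represented by that with the highest mean over the 24 arrays. The 12 root arrays were fitted as 4 groups with limma 3.58.1 in R 4.3.3, two-sided, with Benjamini-Hochberg adjustment over 67795 probe sets. Differences between roots and leaves, and leaf values, came from a fit of 24 arrays as 8 groups. Figures were drawn with matplotlib in Python.

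The members and the 30 gene lists were chosen with earlier results of these data known, and the lists were trimmed to symbols the platform holds. Named genes are the 15 largest rises and falls with non-overlapping arrays, up to 4 DEGs per list by adjusted p, all ion transport genes, and the 6 largest differences in each direction from *res* roots and from WT leaves. Other members of a list and the genes given for salt replicate 3 were chosen after their values were seen. For genes with a LOC number no descriptions, and for promoters no sequences, were used here, so that the planned selection by description and the planned motif count were not run. The fit was tested on simulated data. The number of arrays limits the precision.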

Additional observations from a re-analysis of the deposited data

Results flagged for a closer look

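Differences of the salt response between WT roots and another group were called at 2505 probe sets against *res* roots and at 5454 against WT leaves, by limma tests of the difference itself. Among named DEGs of WT roots, the responses that exceeded that of *res* roots most were those of *TPS31* (7.59), *TSI-1* (4.51), *CHI3* (4.06), *JA2* (3.79), *cel5* (3.47) and *P69B* (3.44), given as WT minus *res* on the log2 scale. Those that fell short of it most were *FRO1* (-5.82), *PDH* (-4.55), *NRAMP1* (-4.11), *pmt* (-3.91), *Mdip1* (-3.69) and *AT1* (-3.54). Of these 12, *TPS31*, *P69B*, *FRO1*, *PDH*, *NRAMP1*, *pmt* and *AT1* were called in opposite directions in WT and *res* roots.

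Against WT leaves the largest positive differences, as roots minus leaves, were in *ODD* (4.41), *cel5* (3.97), *TPS31* (3.63), *TSI-1* (3.24), *Eli3* (3.22) and *AS1* (3.09). The largest negative ones were in *FRO1* (-3.66), *Mdip1* (-2.92), *ST2* (-2.68), *LKT1* (-2.66), *PDH* (-2.23) and *pmt* (-2.04). *PDH* had 9.78, 7.43 and 7.26 in control leaves and *LKT1* 2.65, 4.45 and 4.71, so that leaf control replicate 1 lay apart from the other leaf control arrays in both genes. Without it the differences were -3.04 for *PDH* and -2.02 for *LKT1*. For *Eli3* the difference was 4.24 and for *TPS31* 4.43 without root salt replicate 3.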

How the results depend on the processing

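The number of DEGs in WT roots was 1841, and it lay between 1651 and 1939 with 6 or 24 arrays in the fit, trend and robust settings, no moderation over 12 arrays, repeated quantile normalization, no dim probe sets and array weights. Without moderation of the variances, the 6 WT root arrays alone gave 435 DEGs (213 higher, 222 lower), all among the 1841. They called 33 of the 94 named DEGs, with fewer degrees of freedom for the spread. Among those not called were *PP2C-2* (adjusted p = 0.116), *TPS31* (0.191) and *NHX1* (0.245). The SE of the main fit also rests on *res* root arrays. These lay over 2-fold from their group at 58 to 83 probe sets, against 368 to 1399 for the WT salt arrays. Leaving out 1 array gave 1774 to 2080 DEGs, the lowest without control replicate 3 and the highest without salt replicate 3. With 1 probe set per gene, 1411 of 21323 were called. The difference from *res* roots was called at 2505 probe sets and at 3037 without salt replicate 3, and that from WT leaves at 5454, at 6023 without salt replicate 3, and at 6225 without leaf control replicate 1. With repeated quantile normalization the split of the leaf difference moved to 2515 higher and 2655 lower, against 2277 and 3177.

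The labels give every group the numbers 1 to 3 without tying equal numbers to a shared batch. Deviations of same-numbered root arrays from their group means correlated at -0.08 to 0.06 over 18 pairs, so the numbers showed no pairing among root arrays. Pairs of root and leaf arrays were not checked. With the replicate number as a block, 1834 DEGs were found in WT roots, and 2483 and 5455 probe sets differed from *res* roots and WT leaves. All 94 named DEGs of WT roots were called again with the block. Of the 130 named genes that differed from *res* roots 1 was lost, and to the 229 that differed from WT leaves 3 were added.

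No DEG named by the rule changed direction in any setting. For genes named by the rule that were not DEGs, a change of sign without a call was not counted. Gene group counts without salt replicate 3, and the named differences from *res* roots and WT leaves under other settings, were chosen after seeing the data. The 24 differences stayed called in each setting tried, which their choice as the largest favours. No detection calls or background levels were used, so that the limit set by dim signals cannot be given.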

Other observations

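Salt replicate 3 differed by over 2-fold from the other salt arrays at 59 named genes, 35 lower and 24 higher, of which 13 were DEGs of WT roots only without it. The genes given here were chosen after their values were seen. *ftsH6*, for a plastid protease, had 6.02, 6.42 and 2.93 in salt and 3.96, 3.7 and 3.99 in control, so that without replicate 3 it was higher in salt by 2.34 (adjusted p = 1.84e-07, limma) and replicate 3 itself was below every control. *CAB4* likewise stood at 1.48 without it (adjusted p = 4.48e-05). In the other direction, *CYP735A2*, of trans-zeatin synthesis, had 3.64, 3.82 and 6.48 in salt and 5.65, 5.55 and 5.04 in control, and was lower in salt by -1.69 without replicate 3 (adjusted p = 4.07e-05). The auxin carrier gene *PIN10* had 3.26, 3.22 and 5.35 in salt and 4.72, 4.22 and 5.41 in control, with -1.54 without it (adjusted p = 0.00186). In these 4 genes replicates 1 and 2 lay outside the range of the control arrays on one side, and replicate 3 was inside it or on the other.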
